A study of Caenorhabditis briggsae with 6 samples.

Results

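The 64 genes described here belong to families that build, remodel and shed the nematode cuticle or that are related to hedgehog signalling. They were taken from the 23169 genes counted in C. briggsae L3 larvae by their symbols, which begin with Cbr- and then mlt, mltn, lpr, nas, noah, fbn, ptr, ptc, wrt, grl or grd in gene lists supplied with the study (no listed symbol began with hog). A gene appears in those lists because at least 1 of 3 mutants changed its transcript: Cbr-ivph-3(sy5216), Cbr-spr-4(gu163) or Cbr-htz-1(gu167). Of the 64 genes, 32 were listed for Cbr-spr-4 or Cbr-htz-1, from data sets other than the libraries used here, and these were tested. Some of the 32 were also listed for sy5216, from the libraries used here. The other 32 were listed for sy5216 alone. They were chosen by the same contrast that is described here and had to differ, so their values are given as a description with no test. The copies of the lists used here end within the block of sy5216 alone, and further genes of these families in the rest of that block are not analysed here. Of the genes listed as higher for sy5216 alone, the copies hold 1037 of 1645, and of those listed as lower 1431 of 1743. Genes listed as higher are therefore missing more often.

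Nematodes are covered by a collagenous cuticle that the epidermis secretes, and they shed and replace it at each larval molt. In C. elegans, secreted molting proteins, astacin metalloproteases and a thin apical matrix of zona pellucida, fibrillin-like and lipocalin-related proteins shape the new cuticle and free the old one, and many of their transcripts rise and fall with each larval stage. Nematodes also hold large families of secreted hedgehog-related proteins (warthog, groundhog and ground-like, abbreviated wrt, grd and grl) and of patched and patched-related membrane proteins (ptc and ptr), several of which act in molting and in epidermal secretion in C. elegans.

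The libraries came from strain PS9217, which carries Cbr-ivph-3(sy5216), an allele with a premature stop codon, and from the wild strain AF16 (wild type). Both strains were grown on E. coli OP50 at 20 °C, and L3 hermaphrodites were collected once some of them had vulval precursor cells that had divided. Each genotype has 3 independent biological replicates, so p-values measure the spread between those cultures. Values are in CPM, for which the deposited counts of a library are divided by its total, adjusted with TMM factors (trimmed mean of M-values), and brought to a common sum. Fold changes are log2 values of mutant over wild type from edgeR's quasi-likelihood test, with their standard error (SE), and a gene passed at an adjusted p under 0.05 (Benjamini-Hochberg, over all 14241 genes tested).

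Library totals were 22.8 to 30.9 M counts in the mutant and 24.6 to 25.8 M in wild type. Cbr-ivph-3 itself, the mutated gene, had 21.1, 20.9 and 20.9 CPM in mutant replicates 1, 2 and 3, against 36.5, 34.5 and 33.0 CPM in wild type. Mutant replicate 1 stood apart from mutant replicates 2 and 3, and results that rest on it are given with and without it. Over all tested genes, its median absolute log2 ratio to either of them was 0.50, against 0.08 between replicates 2 and 3 and 0.13 to 0.21 between wild-type replicates. Of all tested genes 21.5% passed with the 6 libraries (11.7% higher and 9.8% lower in the mutant), and 59.7% passed without mutant replicate 1 (31.1% higher and 28.6% lower). Of the called genes 54.4% were higher in the mutant, and 83.6% with scaling by library totals alone. The genotypes did not overlap in 42.3% of tested genes (22.2% higher and 20.1% lower).

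Of the 32 genes listed for another mutant, 27 had enough counts to be tested. In Cbr-ivph-3 mutants the patched-related genes Cbr-ptr-2 and Cbr-ptr-1 and the astacin protease genes Cbr-nas-3 and Cbr-nas-14 were more abundant. The molting genes Cbr-mlt-10 and Cbr-mltn-1, the astacin gene Cbr-nas-37 and the warthog gene Cbr-wrt-4 were less abundant. These 4 higher and 4 lower genes make 29.6% of the 27, against the 21.5% of all tested genes, and the other 19 did not pass. All 8 that passed were also listed by the study for sy5216, from these same libraries. Cbr-grd-3, Cbr-ptr-14 and Cbr-wrt-1, listed for sy5216 as well, did not pass with the 6 libraries. The median log2 fold change of the 27 was -0.13, against 0.06 over all tested genes. Without mutant replicate 1 the same 8 genes passed and 10 more joined them, 9 of them lower in the mutant. The counts were then 5 higher and 13 lower, or 66.7% of the 27, against 59.7% of all tested genes, and the 48.1% that were lower stand beside the 28.6% of all tested genes. With the 6 libraries scaled by library totals the counts for these genes were 6 higher and 4 lower, and with DESeq2's size factors 3 higher and 5 lower.

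**Figure D1:**
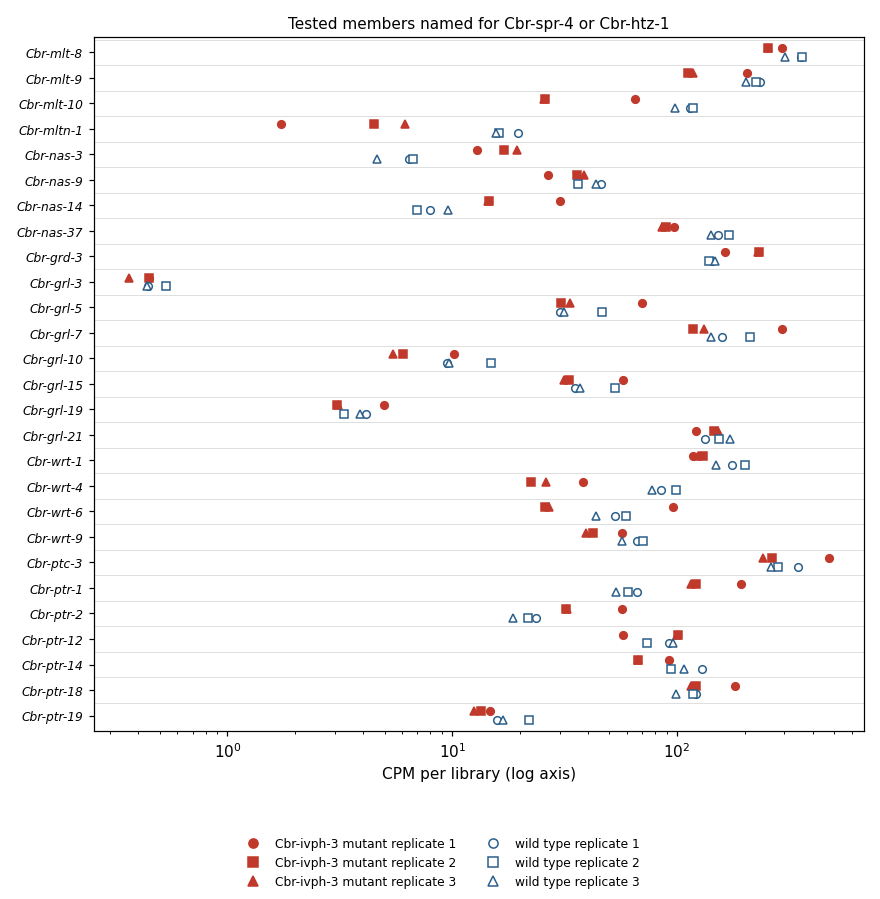
CPM in each of the 6 libraries, on a log axis, for the 27 tested genes listed for Cbr-spr-4 or Cbr-htz-1; filled red symbols are Cbr-ivph-3 mutants, open blue symbols are wild type, and circle, square and triangle are replicates 1, 2 and 3. The 2 genotypes are apart in 13 genes, 5 of them higher and 8 lower in the mutant, and overlap in the other 14. Over all tested genes they are apart in 42.3%. Mutant replicate 1 lies above the mean of the other mutant libraries in 20 of the 27, against 6732 of all 14241 tested genes.

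Among the mlt genes, whose loss blocks molting in C. elegans, Cbr-mlt-10 (WBGene00042425) had 65.2, 26.0 and 25.7 CPM in mutant replicates 1, 2 and 3, against 114, 118 and 98.1 CPM in wild-type replicates 1, 2 and 3. All mutant libraries lay below all wild-type libraries, and mutant replicate 1 lay between them and the other mutant libraries. This gave a log2 fold change of -1.50 (SE 0.38, adjusted p = 0.0351 from edgeR), and it was -2.10 without mutant replicate 1. Cbr-mltn-1 (WBGene00025766), of the family named after its relation to mlt-10, had 1.73, 4.48 and 6.13 CPM in the mutant, against 19.7, 16.1 and 15.7 CPM in wild type. Here mutant replicate 1 was the lowest of all libraries, so the replicate that came closest to wild type for Cbr-mlt-10 was the farthest from it for Cbr-mltn-1. The log2 fold change was -2.05 (SE 0.42, adjusted p = 0.0170), or -1.69 without that library. The other pair of mlt genes listed for another mutant did not pass. Cbr-mlt-8 had a log2 fold change of -0.35 (adjusted p = 0.110) with no overlap between genotypes, and Cbr-mlt-9 one of -0.61 (adjusted p = 0.131) with mutant replicate 1 inside the wild-type range. Without mutant replicate 1 both passed, at -0.43 (adjusted p = 0.00465) and -0.95 (adjusted p = 4.87e-05).

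The mlt and mltn genes listed for sy5216 alone went in both directions. Cbr-mlt-11 (WBGene00028044), whose C. elegans counterpart is a Kunitz-type protease inhibitor needed for molting, had 896, 201 and 233 CPM in the mutant, against 1545, 1152 and 1363 CPM in wild type. The groups did not overlap, but mutant replicate 1 was far above the other mutant libraries, and the log2 fold change was -1.61 with it and -2.65 without it. Cbr-mlt-3 (WBGene00028559) lay on the other side, with 37.1, 49.6 and 52.4 CPM in the mutant against 19.2, 17.7 and 17.0 CPM in wild type (log2 fold change 1.37). For Cbr-mlt-3, mutant replicate 1 was the lowest of the mutant libraries. Cbr-mltn-9 (WBGene00032264) had 38.0, 39.3 and 37.5 CPM in the mutant, against 115, 88.0 and 82.9 CPM in wild type (log2 fold change -1.32). Its mutant libraries lay close together, mutant replicate 1 included. Cbr-mltn-5 and Cbr-mltn-3, which have 2 genes between them in the RefSeq gene order, had log2 fold changes of -1.92 and 0.82. For Cbr-mltn-5 this rested on 39 counts in the mutant against 112 in wild type (ratio 0.258, 95% exact interval 0.174 to 0.375, which covers counting error only).

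Astacin genes encode secreted zinc metalloproteases. Cbr-nas-37 (WBGene00025116), whose C. elegans counterpart opens the old cuticle at the molt, had 96.5, 89.4 and 85.6 CPM in the mutant, against 152, 171 and 141 CPM in wild type. The mutant libraries lay close together below all wild-type libraries. Its log2 fold change was -0.77 (SE 0.13, adjusted p = 0.00787), or -0.83 without mutant replicate 1. Cbr-nas-3 (WBGene00038529) had 12.8, 17.0 and 19.4 CPM in the mutant, against 6.45, 6.69 and 4.64 CPM in wild type. Every mutant library was above every wild-type library, with mutant replicate 1 nearest to wild type, and the log2 fold change was 1.47 (SE 0.22, adjusted p = 0.00606). Cbr-nas-14 (WBGene00025001) was just inside the threshold. It had 30.3, 14.6 and 14.4 CPM in the mutant, against 7.96, 6.96 and 9.59 CPM in wild type, with mutant replicate 1 the farthest from wild type. The log2 fold change of 1.27 (SE 0.33, adjusted p = 0.0363) was 0.82 without mutant replicate 1, where it passed (adjusted p = 0.00104). Cbr-nas-9, the other astacin gene listed for another mutant, had a log2 fold change of -0.32 (adjusted p = 0.258), and its groups overlapped, with mutant replicate 3 above wild-type replicate 2.

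Of the 6 astacin genes listed for sy5216 alone, 5 were higher in the mutant. These were Cbr-nas-12 (log2 fold change 1.60), Cbr-nas-27 (1.12), Cbr-nas-6 (1.11), Cbr-nas-7 (0.96) and Cbr-nas-30 (0.82). In C. elegans, nas-6 and nas-7 act in the pharynx, where the cuticle of the grinder is renewed at the molt. Cbr-nas-33 was the exception at -0.97.

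The genes of the apical matrix were listed for sy5216 alone without exception and so had to differ, and all 8 were lower in the mutant. Of the 32 genes listed for sy5216 alone, these 8 included, 18 were lower. Among all tested genes, which were not chosen in that way, 20.1% were lower with no overlap between the genotypes. Cbr-noah-1 (WBGene00026763), which encodes a zona pellucida protein of the epidermal surface, had 723, 601 and 595 CPM in the mutant, against 2121, 1918 and 1807 CPM in wild type (log2 fold change -1.61). The mutant libraries were all far below wild type, and mutant replicate 1 was only slightly nearer to it. Cbr-noah-2 (WBGene00038129), of the same class, had 424, 226 and 243 CPM in the mutant, against 1286, 1342 and 1128 CPM in wild type. Cbr-noah-2 thus had a log2 fold change of -2.07, and -2.43 without mutant replicate 1, the highest of the mutant libraries. Cbr-fbn-1 (WBGene00023525), the fibrillin-related gene, had 178, 44.8 and 49.8 CPM in the mutant, against 469, 282 and 403 CPM in wild type. Mutant replicate 1 lay between the other mutant libraries and wild type, and the log2 fold change was -2.08 with it and -3.03 without it.

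Of the 5 lipocalin-related genes, 4 are direct neighbours. In the RefSeq gene order (assembly CB4, used here for names and neighbours only), Cbr-lpr-4, Cbr-lpr-5, Cbr-lpr-6 and Cbr-lpr-3 follow each other with 0 genes between them. Cbr-lpr-3 (WBGene00037114), whose C. elegans counterpart is a component of the matrix, had 418, 285 and 319 CPM in the mutant, against 1189, 1259 and 1039 CPM in wild type (log2 fold change -1.77). Cbr-lpr-5 (WBGene00037112) had 257, 185 and 185 CPM in the mutant, against 648, 694 and 544 CPM in wild type (log2 fold change -1.59). For these genes mutant replicate 1 was the highest of the mutant libraries. The genes next to them showed the opposite order within the mutant. Cbr-lpr-4 (WBGene00037111) had 126, 200 and 202 CPM in the mutant, against 527, 557 and 435 CPM in wild type (log2 fold change -1.52). Cbr-lpr-6 (WBGene00037113) had 55.0, 110 and 111 CPM in the mutant, against 467, 441 and 401 CPM in wild type (log2 fold change -2.25). Mutant replicate 1 was the lowest library for both, and the log2 ratio of mutant replicate 1 to the mean of replicates 2 and 3 was -0.67 for Cbr-lpr-4 and -1.0 for Cbr-lpr-6, against 0.48 for Cbr-lpr-5 and 0.47 for Cbr-lpr-3. The genotypes were apart in all 4 genes. How reads that match several genes were assigned is not given in the sources used here, and the sequence similarity of these neighbours was not examined.

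A looser run holds Cbr-nas-30, Cbr-lpr-1, Cbr-ptr-21 and Cbr-ptr-11, with 2, 3 and 8 other genes between them. Here the neighbours went in different directions. Cbr-nas-30 (WBGene00027651) had 105, 57.5 and 59.3 CPM in the mutant, against 40.0, 37.4 and 48.1 CPM in wild type. Cbr-ptr-11 (WBGene00027638), a patched-related gene, had 98.2, 50.1 and 48.3 CPM in the mutant, against 33.5, 32.2 and 34.6 CPM in wild type. Both were higher in every mutant library, and highest in mutant replicate 1. The log2 fold changes of 0.82 and 0.97 were 0.47 and 0.55 without that library. Cbr-lpr-1 (WBGene00027650), which is needed for the excretory duct tube in C. elegans, had 12.8, 23.5 and 24.7 CPM in the mutant, against 35.3, 35.3 and 32.4 CPM in wild type (log2 fold change -0.75). Cbr-ptr-21 (WBGene00027646) had 80.7, 66.0 and 60.7 CPM in the mutant, against 144, 138 and 136 CPM in wild type (log2 fold change -1.01). These genes were lower in every mutant library, although for Cbr-lpr-1 the lowest was mutant replicate 1 and for Cbr-ptr-21 it was mutant replicate 3.

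**Figure D2:**
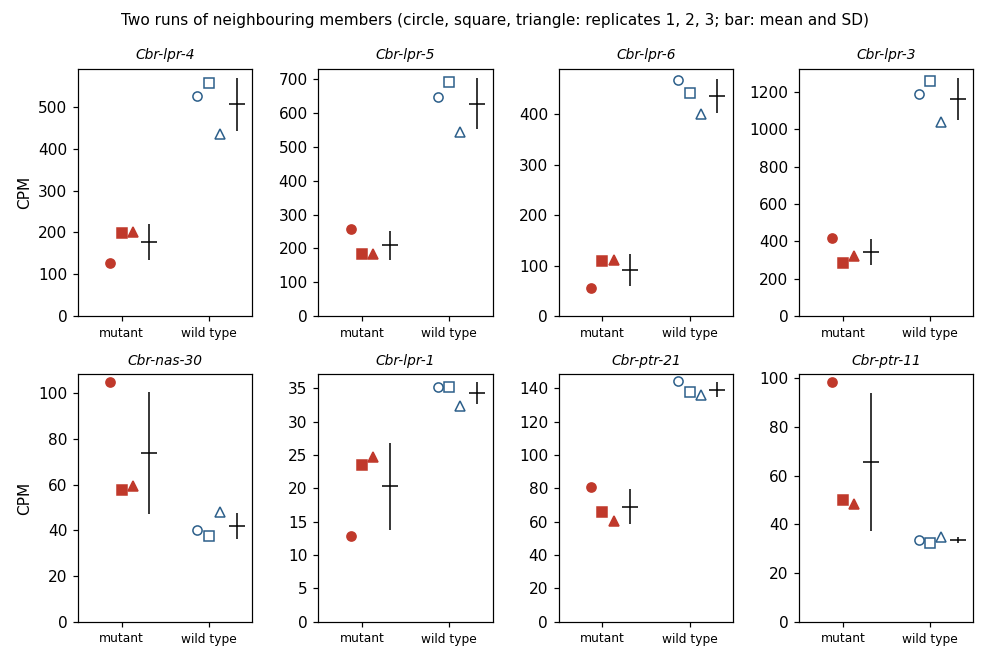
CPM (linear axes from 0) of the 8 genes in the 2 runs of neighbours, in Cbr-ivph-3 mutants (filled red) and wild type (open blue), with circle, square and triangle for replicates 1, 2 and 3 and a bar for the mean ± SD (n = 3). In the upper row all 4 lipocalin-related genes are lower in the mutant, and in the lower row Cbr-nas-30 and Cbr-ptr-11 are higher while Cbr-lpr-1 and Cbr-ptr-21 are lower.

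**Figure D3:**
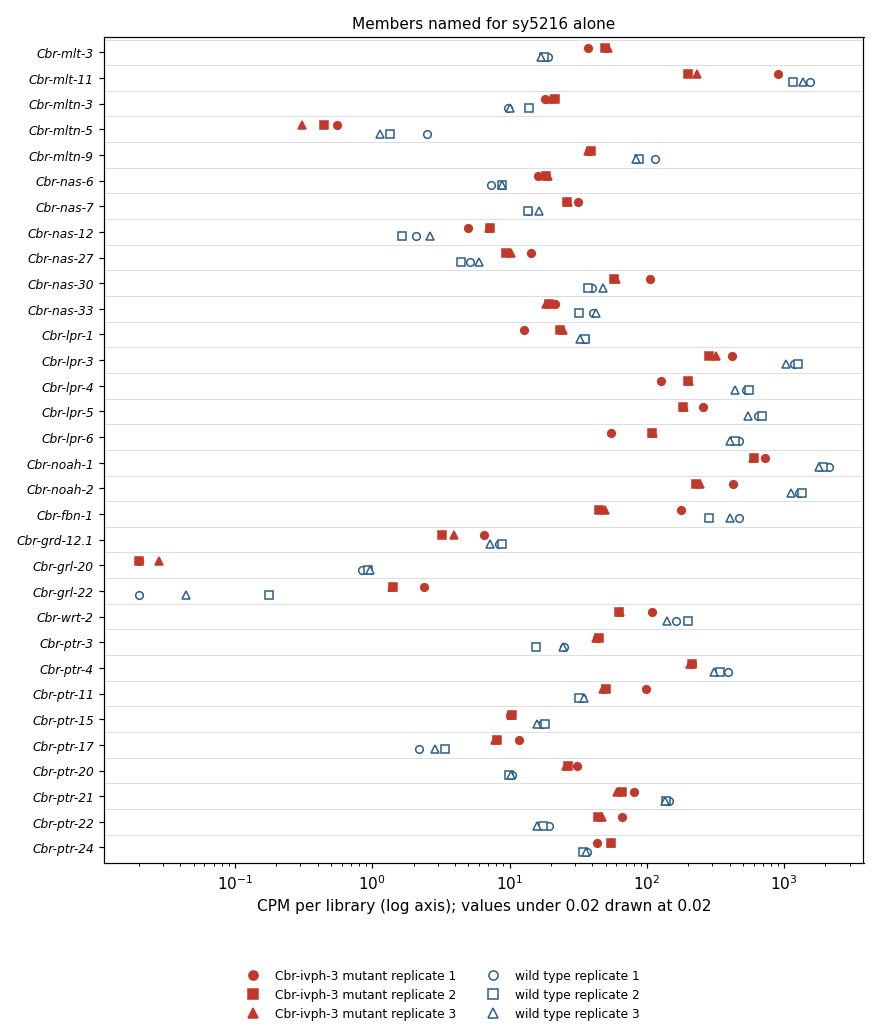
CPM in each library, on a log axis with values under 0.02 drawn at 0.02, for the 32 genes listed for sy5216 alone; filled red symbols are Cbr-ivph-3 mutants and open blue symbols wild type. The genotypes are apart in all 32, 14 higher and 18 lower in the mutant, as the choice of these genes by the same contrast implies.

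Hedgehog-related proteins are secreted, and the groundhog, ground-like and warthog families are told apart by their amino-terminal domains. Cbr-wrt-4 (WBGene00029713) had 38.2, 22.5 and 26.1 CPM in the mutant, against 84.9, 98.9 and 76.9 CPM in wild type. The groups were well apart, and the log2 fold change was -1.59 (SE 0.23, adjusted p = 0.00502), or -1.85 without mutant replicate 1. Cbr-wrt-1 (WBGene00033836) lay just outside the threshold with a smaller difference. It had 117, 130 and 124 CPM in the mutant, against 175, 200.0 and 149 CPM in wild type, with no overlap (log2 fold change -0.49, adjusted p = 0.0520, and -0.47 with adjusted p = 0.0102 without mutant replicate 1). Cbr-wrt-6 (WBGene00034791) had the highest ratio of mutant replicate 1 to the other mutant libraries among the tested genes listed for another mutant. It had 95.8, 25.9 and 27.1 CPM in the mutant, against 52.9, 59.2 and 43.4 CPM in wild type. Mutant replicate 1 was above all wild-type libraries and mutant replicates 2 and 3 were below them all. The log2 fold change was -0.06 (adjusted p = 0.941) over the 6 libraries and -0.98 (adjusted p = 0.000328) without mutant replicate 1. Cbr-wrt-9 had a log2 fold change of -0.48 (adjusted p = 0.103), and -0.67 (adjusted p = 0.000896) without that library. Cbr-wrt-2, listed for sy5216 alone, was at -1.10.

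Of the 8 tested groundhog and ground-like genes listed for another mutant, the groundhog gene Cbr-grd-3 came nearest to passing. Cbr-grd-3 (WBGene00045296) had 164, 231 and 229 CPM in the mutant, against 144, 139 and 147 CPM in wild type. All mutant libraries were above wild type, mutant replicate 1 only narrowly. The log2 fold change was 0.54 (SE 0.16, adjusted p = 0.0585), and 0.68 (adjusted p = 9.57e-05) without mutant replicate 1. The ground-like gene Cbr-grl-7 (WBGene00041580) had 293, 118 and 132 CPM in the mutant, against 159, 210 and 141 CPM in wild type. Mutant replicate 1 was the highest of all 6 libraries and the other mutant libraries were the lowest. Its log2 fold change was 0.09 (adjusted p = 0.889) with the 6 libraries, and it turned to -0.45 (adjusted p = 0.0387) without mutant replicate 1. Cbr-grl-10 showed a log2 fold change of -0.66 (adjusted p = 0.176), which passed at -1.0 (adjusted p = 0.00352) without that library. The remaining tested ground-like genes of this set, Cbr-grl-3, Cbr-grl-5, Cbr-grl-15, Cbr-grl-19 and Cbr-grl-21, had log2 fold changes of -0.17 to 0.31 with overlapping genotypes and did not pass in either fit.

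Several groundhog and ground-like genes were near the limit of detection. Cbr-grl-3, which was tested, had 10 to 13 counts per library. Cbr-grd-7, Cbr-grl-9, Cbr-grl-17, Cbr-grl-23 and Cbr-grl-25, listed as higher in Cbr-spr-4, had 0 to 76 counts per library and did not pass the filter on low counts. For Cbr-grl-23, 76 counts came from mutant replicate 1, against 6 and 7 in mutant replicates 2 and 3 and 8, 10 and 14 in wild type. Among the genes listed for sy5216 alone, Cbr-grl-20 and Cbr-grl-22 also had few counts but went in opposite directions. Cbr-grl-20 had 1 count in the 3 mutant libraries together, against 62 in wild type, which is 0.0120 of the wild-type level after scaling (95% exact interval 0.000298 to 0.0691, counting error only). Cbr-grl-22 had 157 counts in the mutant against 5 in wild type, or 23.3 times the wild-type level (95% exact interval 9.77 to 72.7, counting error only). Of the 5 wild-type counts, 4 were in wild-type replicate 2, and the fitted log2 fold change of Cbr-grl-22 was 4.47 with that library and 6.01 without it. Cbr-grd-12.1, a groundhog gene listed for sy5216 alone, had a log2 fold change of -0.83.

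Patched proteins are the receptors of hedgehog in other animals, and the patched-related family shares their sterol-sensing membrane architecture. Cbr-ptr-1 (WBGene00038479) had 192, 122 and 116 CPM in the mutant, against 66.0, 60.6 and 53.4 CPM in wild type. All mutant libraries were well above wild type, and mutant replicate 1 the farthest. Its log2 fold change came to 1.25 (SE 0.22, adjusted p = 0.0109), or 0.97 without that library. Cbr-ptr-2 (WBGene00033020), just inside the threshold, had 56.8, 32.2 and 32.5 CPM in the mutant, against 23.5, 21.6 and 18.6 CPM in wild type. The groups did not overlap, and the log2 fold change was 0.93 (SE 0.25, adjusted p = 0.0422), or 0.60 (adjusted p = 0.00172) without mutant replicate 1. Both genes were listed as lower in Cbr-htz-1 and were higher here. The patched gene Cbr-ptc-3 (WBGene00038774), essential in C. elegans, had 471, 263 and 240 CPM in the mutant, against 343, 282 and 262 CPM in wild type. Its genotypes overlapped, with mutant replicate 1 above every other library, and the log2 fold change was 0.13 (adjusted p = 0.765), or -0.24 (adjusted p = 0.113) without that library. Cbr-ptr-12 (WBGene00026893) had 57.2, 101 and 99.8 CPM in the mutant, against 91.8, 73.8 and 96.2 CPM in wild type. Mutant replicate 1 was the lowest of all libraries there, and the log2 fold change was -0.02 (adjusted p = 0.958). Cbr-ptr-14 (-0.55), Cbr-ptr-19 (-0.43) and Cbr-ptr-18 (0.30) did not pass either, and without mutant replicate 1 Cbr-ptr-14 and Cbr-ptr-19 passed at -0.72 and -0.50.

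Of the 9 patched-related genes listed for sy5216 alone, 6 were higher and 3 lower in the mutant. Cbr-ptr-17 (WBGene00029819) had 11.7, 8.14 and 7.84 CPM in the mutant, against 2.18, 3.39 and 2.85 CPM in wild type (log2 fold change 1.71). Cbr-ptr-22 (WBGene00039334) had 66.2, 44.1 and 46.9 CPM in the mutant, against 19.4, 17.7 and 15.7 CPM in wild type (log2 fold change 1.58). Cbr-ptr-20 (WBGene00026081) had 31.2, 26.6 and 26.0 CPM in the mutant, against 10.5, 9.86 and 10.3 CPM in wild type (log2 fold change 1.45). In all 3 the lowest mutant library was more than 2-fold above the highest wild-type library. Cbr-ptr-3 (1.01) and Cbr-ptr-24 (0.51) were the other higher genes beside Cbr-ptr-11. On the lower side, Cbr-ptr-4 (WBGene00035213), which acts at the epidermal surface in C. elegans, had 213, 215 and 206 CPM in the mutant, against 391, 339 and 309 CPM in wild type (log2 fold change -0.71). Its mutant libraries hardly differed from each other. Cbr-ptr-15 had a log2 fold change of -0.74, beside Cbr-ptr-21 above.

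**Figure D4:**
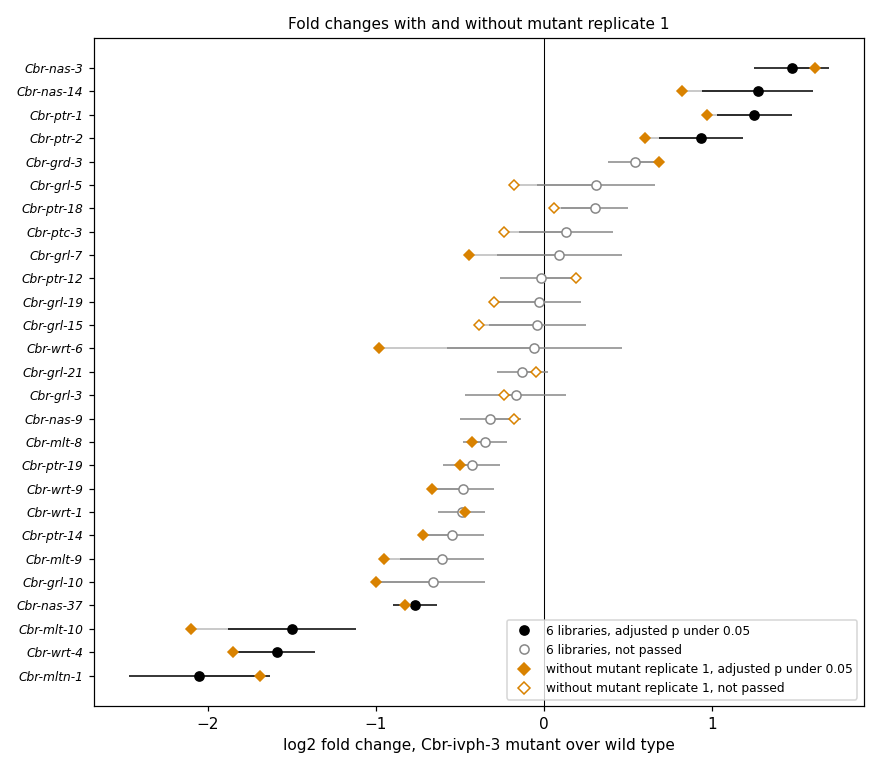
Log2 fold change, mutant over wild type, of the 27 tested genes listed for another mutant, with the 6 libraries (circles, bars are the standard error) and without mutant replicate 1 (orange diamonds); filled symbols passed at an adjusted p under 0.05. Of the 10 genes that pass only without mutant replicate 1, Cbr-grd-3 is higher in the mutant and the other 9 are lower, among them Cbr-wrt-6 (-0.98) and Cbr-grl-7 (-0.45).

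The list a gene came from was read beside these calls. Of 18 genes listed as lower in Cbr-htz-1, 2 rose, 4 fell and 12 missed the threshold, and without mutant replicate 1 the counts were 2 higher, 12 lower and 4 not passing. The 4 lower genes are 22.2% of the 18, against 9.8% of all tested genes, and the 12 are 66.7%, against 28.6%. Of 6 tested genes listed as higher in Cbr-spr-4, 2 were higher (Cbr-nas-3 and Cbr-nas-14) and 4 did not pass, so that 33.3% were called, against 21.5% of all tested genes. Without mutant replicate 1, Cbr-grd-3 joined them as higher, Cbr-ptr-19 was lower (-0.50) and 2 did not pass, or 66.7% called, against 59.7%. The 3 genes listed as lower in Cbr-spr-4, Cbr-grl-21, Cbr-nas-9 and Cbr-ptr-12, had adjusted p of 0.583, 0.258 and 0.958.

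The calls were compared across 14 alternative settings. Cbr-nas-3, Cbr-nas-37 and Cbr-wrt-4 passed under all 14, each library left out in turn included, with adjusted p of at most 0.0350, 0.0430 and 0.0343. The other 5 genes did not pass when wild-type replicate 1, 2 or 3 was left out, in fits that called 1240 to 1431 of all genes, against 3062 with the 6 libraries. Their fold changes moved little, with log2 values of -1.61 to -1.47 for Cbr-mlt-10, -2.17 to -1.99 for Cbr-mltn-1, 1.15 to 1.37 for Cbr-nas-14, 1.14 to 1.29 for Cbr-ptr-1 and 0.81 to 0.97 for Cbr-ptr-2. The adjusted p was then 0.0966 to 0.124 for Cbr-mlt-10, 0.0563 to 0.0675 for Cbr-mltn-1, 0.106 to 0.154 for Cbr-nas-14, 0.0582 to 0.0727 for Cbr-ptr-1 and 0.134 to 0.184 for Cbr-ptr-2. Cbr-mlt-10 also did not pass without mutant replicate 2 or 3, nor Cbr-ptr-2 without mutant replicate 3.

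Within the mutant, the 59 tested genes of these families leaned towards replicate 1. In 40 of them mutant replicate 1 was above the mean of mutant replicates 2 and 3, against 6732 of all 14241 tested genes. The median log2 ratio was 0.45, against -0.05 over all tested genes (computed on CPM + 0.1). The ratio passed 1 in 7 of the 59 genes, and in 1552 of the 14241 tested genes. Its highest values among the 59 were 2.05 for Cbr-mlt-11, 1.91 for Cbr-fbn-1, 1.85 for Cbr-wrt-6 and 1.33 for Cbr-mlt-10, which encode a protease inhibitor, a matrix protein, a hedgehog-related protein and a molting protein. At the other end stood Cbr-mltn-1 (-1.56), Cbr-lpr-6 (-1.0), Cbr-lpr-1 (-0.90) and Cbr-ptr-12 (-0.81). The genes thus did not move together between mutant libraries, and both ends held molting or matrix genes. The median absolute log2 ratio over the 59 genes was 0.55 between mutant replicate 1 and either of the other mutant libraries, 0.07 between mutant replicates 2 and 3, and 0.19 to 0.25 between wild-type libraries. Mutant replicate 1 was more than 2-fold from mutant replicates 2 and 3 in 13.6% and 16.9% of the 59 genes. Over all tested genes that share was 19.9% for either of them.

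**Figure D5:**
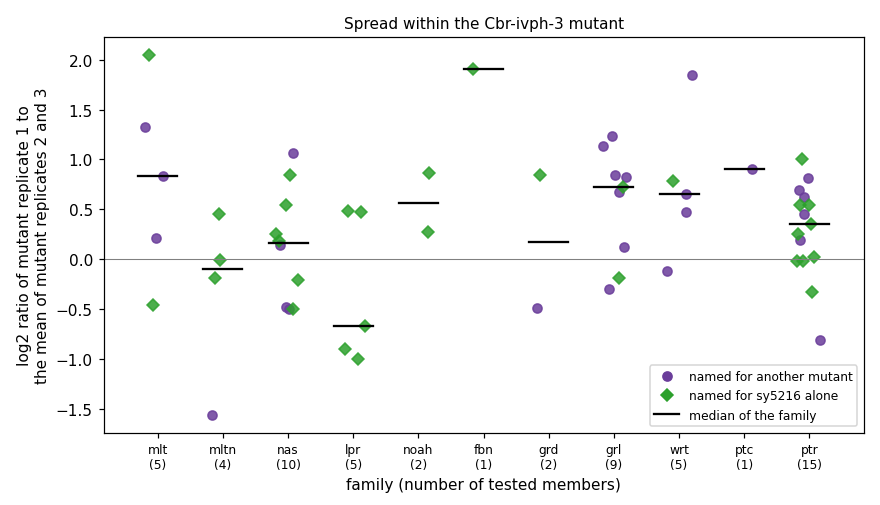
Log2 ratio of mutant replicate 1 to the mean of mutant replicates 2 and 3 for each tested gene, by family, with the number of tested genes in brackets and a line at the family's median; circles were listed for another mutant and diamonds for sy5216 alone. The ratios run from -1.56 to 2.05, and 40 of 59 points lie above 0, against 6732 of all 14241 tested genes.

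Other genes of molting and of hedgehog-related pathways that the lists name were read in the same way. Of 21 regulators of the molting cycle looked for, 7 were matched. All 7 were listed for sy5216 alone and so had to differ, and in all 7 every mutant library lay below every wild-type library. Among all tested genes, which were not chosen in that way, 20.1% were lower with no overlap between the genotypes. The copies of the lists also hold a smaller part of the genes listed as higher, and the regulators that were not matched were not read. Cbr-peb-1 had a log2 fold change of -1.93, Cbr-lin-42, a period-related gene that paces the larval molts in C. elegans, -1.41, Cbr-myrf-1 -1.20, Cbr-elt-1 and Cbr-elt-3 -0.99 each, Cbr-blmp-1 -0.62 and Cbr-pan-1 -0.52. Cbr-lin-42 had 309, 102 and 115 CPM in the mutant, against 475, 481 and 439 CPM in wild type, so mutant replicate 1 lay nearest to wild type, and its log2 fold change was -2.10 without that library. Other pathway genes listed for sy5216 alone went in both directions. Among 5 genes of cuticle release and matrix, Cbr-bli-5 was higher (0.58) and 4 were lower, Cbr-let-653 (-1.18), Cbr-let-767 (-0.4), Cbr-pxn-2 (-1.03) and Cbr-sym-1 (-2.01). The 2 genes with other relations to hedgehog were higher, Cbr-rib-1 (0.52) and Cbr-ncr-2 (2.33, or 1.5 without mutant replicate 1). Of 8 tested pathway genes listed for another mutant, Cbr-cut-6, which encodes a cuticlin, rose (log2 fold change 1.16, edgeR adjusted p = 0.0324). Cbr-pdi-2, which encodes a protein disulphide isomerase of collagen assembly, fell (-0.95, adjusted p = 0.0150), and 6 did not pass. Over all tested genes 11.7% passed as higher and 9.8% as lower. Without mutant replicate 1, 2 of the 8 were higher and 3 lower, against 31.1% and 28.6% of all tested genes. The calls for Cbr-cut-6 and Cbr-pdi-2 were each lost on leaving out any of the wild-type libraries or mutant replicate 2 or 3.

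Tissue markers were read beside these genes. In bulk RNA from whole larvae, fewer cells of a type and less RNA per cell cannot be told apart. The markers that could be matched come from the same lists, and all 4 body wall muscle markers, 3 of the 4 intestine markers and 2 of the 7 hypodermis and seam markers were listed for sy5216 alone and had to differ. The hypodermis and seam markers summed to 7966, 3221 and 3359 CPM in mutant replicates 1, 2 and 3, against 4910 to 6210 CPM in wild type. The collagen genes Cbr-dpy-13, Cbr-dpy-5 and Cbr-sqt-3 carried most of this sum, and among the mutant libraries they were highest in replicate 1. The other markers of the list differed from each other. Cbr-dpy-7 had 132, 170 and 173 CPM in the mutant, against 459, 490.3 and 390.4 CPM in wild type, and Cbr-elt-3 was likewise lower in every mutant library with replicate 1 the lowest. Cbr-cut-6 was higher in every mutant library and Cbr-rol-6 overlapped, both with replicate 1 the highest of the mutant libraries. Of 9 germline markers looked for, 6 were matched, each through a list of genes higher in Cbr-spr-4, so they are not a neutral set. The 6 summed to 1125, 672 and 689 CPM in the mutant, against 396 to 410.0 CPM in wild type. Of these 6, 5 passed as higher, against 11.7% of all tested genes, which were not chosen in that way. The sixth, the P granule gene Cbr-pgl-1, had 248, 59.5 and 61.8 CPM in the mutant, against 146, 140.4 and 158 CPM in wild type (log2 fold change -0.27, adjusted p = 0.767), and was lower without mutant replicate 1 (-1.29, adjusted p = 8.09e-06). The body wall muscle markers summed to 4684, 2224 and 2423 CPM in mutant replicates 1, 2 and 3, against 6685 to 7424 CPM in wild type. The intestine markers summed to 1239, 680 and 695 CPM in these mutant libraries, against 1623 to 1810 CPM in wild type. Cbr-cpr-6, the intestine marker listed for another mutant, overlapped between genotypes (log2 fold change -0.05, edgeR adjusted p = 0.926). Without mutant replicate 1 it passed as lower (-0.5, adjusted p = 0.0121). The 2 pharyngeal muscle markers were both matched through a list of genes higher in Cbr-spr-4. They summed to 607, 140 and 161 CPM in mutant replicates 1, 2 and 3, against 662 to 1113 CPM in wild type. Neither passed with the 6 libraries (edgeR adjusted p = 0.132 for Cbr-myo-2, whose genotypes overlapped, and 0.0742 for Cbr-myo-1). Without mutant replicate 1 both passed as lower, at log2 fold changes of -2.61 and -2.62. No matched marker was at 0 in either genotype, and the part of these shifts in the values above was not tested.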

How the data were processed

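RNA from whole L3 hermaphrodites was sequenced from 3 Cbr-ivph-3(sy5216) and 3 wild-type cultures. The authors aligned reads with STAR to the WS279 genome and assigned read pairs to genes with featureCounts, set to reverse-stranded (versions not given in the sources used here). The deposited values are raw counts, whole numbers for 23169 genes. The library kit named in the labels does not mark strand, so values of genes that overlap others are uncertain.

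Members and lists were chosen with earlier results of these data known. Identifiers were paired with symbols by the study's gene lists, and all 64 members had a RefSeq entry by locus, 58 with the same symbol. RefSeq holds 119 genes with symbols of these families, and 61 of the symbols are not given by the lists. Among them, Cbr-grd-12 is the RefSeq symbol of Cbr-grd-12.1, which was analysed, and the others were not analysed here.

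edgeR 4.0.16 in R 4.3.3 was used with TMM scaling, filterByExpr at its defaults, robust glmQLFit and glmQLFTest, with genotype as the only term. The script was tested on simulated data. Standard errors were obtained by dividing the log2 fold change by the root of its F value. Alternatives were other scalings (library totals, upper quartiles, size factors of DESeq2), other filters (at least 10 counts in every library, or 1 count in any), other tests (limma-voom with limma 3.58.1, DESeq2 1.42.0), a replicate block, and leaving out each library. Values per library are given for genes that passed and those next to the threshold, the extreme fold changes and within-mutant ratios among genes of at least 5 CPM, neighbours, and the most abundant gene of each family. Count ratios have exact 95% intervals. The authors' own fold changes were not used.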

Additional observations from a re-analysis of the deposited data

How the results depend on the processing

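The fits called 3062 of all genes in the main setting and 1240 to 8644 with a library left out, the highest without mutant replicate 1 and the lowest without wild-type replicate 1. Of the genes listed for another mutant, 4 were higher and 4 lower, with 1 to 5 higher and 2 to 13 lower when a library was left out. Of the other pathway genes 1 was higher and 1 lower, with 2 higher under library totals and, with a library left out, 0 to 2 higher and 0 to 3 lower. DESeq2 gave 5 higher and 6 lower members. Replicate numbers were treated as names without pairing, since the correlations of same-numbered deviations were 0.152, 0.174 and -0.0667, and with a replicate block 2336 genes, and 4 higher and 5 lower members, passed. Library totals moved the median of all genes from 0.06 to 0.37, and fold changes under it are to be read against that shift.

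Direction turned only in genes that had not passed. Under library totals the log2 fold changes were 0.25 for Cbr-grl-15, 0.26 for Cbr-grl-19, 0.19 for Cbr-grl-21, 0.14 for Cbr-grl-3, 0.01 for Cbr-nas-9, 0.31 for Cbr-ptr-12 and 0.19 for Cbr-wrt-6. Under upper-quartile scaling they were 0.02 for Cbr-grl-15, 0.04 for Cbr-grl-19 and 0.08 for Cbr-ptr-12, which was at 0.00 with at least 10 counts in every library. Cbr-grl-7 was at -0.02 with limma-voom and with the replicate block. With a library left out, values ran from -0.39 to 0.14 for Cbr-grl-15, -0.30 to 0.09 for Cbr-grl-19, -0.18 to 0.52 for Cbr-grl-5, -0.45 to 0.32 for Cbr-grl-7, -0.24 to 0.31 for Cbr-ptc-3, -0.16 to 0.19 for Cbr-ptr-12 and -0.98 to 0.24 for Cbr-wrt-6. Of these turns, only that of Cbr-grl-7 without mutant replicate 1 passed, and the cause was not tested. With the 6 libraries, Cbr-ptr-2 did not pass without a filter or with DESeq2's size factors, nor Cbr-nas-14 with limma-voom. Genes of few counts, such as Cbr-grl-20 (1 count in the mutant), have fold changes that depend on the prior count.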
